A study of Homo sapiens with 14 samples.

Results

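Endogenous TRMT2A trapped on RNA by a drug was compared with an overexpressed, self-trapping mutant of the same enzyme in HEK293, a human embryonic kidney cell line. All libraries of HEK293 cells labelled FICC-Seq or miCLIP were taken, which gave 3 FICC-Seq and 2 miCLIP libraries, 5 of the 14 libraries of the series. In FICC-Seq the cells received 100 µM 5-fluorouracil (5FU) for 24 h, and the enzyme that the cells themselves make was precipitated with an antibody to TRMT2A. The labels call the condition of these libraries untreated, while their protocol gives the 5FU. In miCLIP the cells were transfected with FLAG-tagged TRMT2A in which a glutamate of the catalytic domain was changed to alanine, were harvested 24 h later without 5FU, and the tagged protein was precipitated with an antibody to FLAG. Of the remaining libraries, the 3 of FICC-Seq in HAP1 cells served only to place position 53 in an alternative, and those from UV crosslinking were not used here.

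TRMT2A places the methyl group of 5-methyluridine (m5U) on uridine 54, the first base of the T-loop of cytosolic tRNAs, in a reaction that passes through a covalent bond between a cysteine of the enzyme and the uracil ring. A fluorine at carbon 5 of the ring, or loss of the catalytic base, keeps that bond from being released, so that enzyme and RNA stay joined. Reverse transcription of the joined RNA tends to stop at or just before the bound base, and the start of each cDNA then marks the target. Incorporation of 5FU into new RNA precedes trapping in FICC-Seq, whereas the mutant can trap unsubstituted RNA.

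The drug, the mutation, the overexpression, the tag and the antibody all changed together with the method, so their parts in any difference cannot be told apart. The paper calls the libraries of a method biological replicates, and the labels do not say whether they came from separate cultures, so p-values measure the spread between these libraries, which may be technical. Each value is a share of its library, so a target that takes more leaves less for the others, and neither the amount of a tRNA in the cell nor the number of cells is known.

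The FICC-Seq libraries held 23721, 15982 and 28429 cDNA counts and the miCLIP libraries 39024 and 104605. A count of 0 allows a share of up to 0.0188% in the shallowest library and up to 0.00287% in the deepest (3 counts of the total, counting error only). Counts lay on 2571 to 2974 positions in FICC-Seq and on 15131 and 31885 in miCLIP, of which 53.1% to 55.7% and 71.7% to 74.6% held a single cDNA. Every pair of replicates differed by more than sampling noise (chi-square per degree of freedom from 1.95 to 5.48 over loci and sites), so each counted as 1 library. FICC-Seq replicate 2 stood apart from the other 2, with a Pearson correlation of log2 values of 0.798 and 0.799 to them against 0.943 between them. It also held 9.81% of its placed tRNA counts outside positions 53 to 60, where replicates 1 and 3 held 2.69% and 3.52% and the miCLIP libraries 38.8% and 46.0%. Replicates 1 and 3 carry the same sample barcode in the labels.

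Stretches of some of the tRNA loci discussed below are shown first, since loci are grouped by their T-loops further on. The same T-loop occurs on both sides: tRNA-Leu-CAA-2-1, higher in FICC-Seq, and tRNA-Thr-AGT-1-1, higher in miCLIP, both have TTCGAAT. Each line gives the genomic strand of the tRNA in GRCh37 (hg19) from mature position 49 to 73, that is the T-arm and the 3′ side of the acceptor stem, 5′ to 3′, and capitals mark bases 54 and 59. The first 4 were among the loci higher in FICC-Seq, the next 7 were higher in miCLIP, and the last, among the most counted of miCLIP, was not called.
tRNA-Leu-CAA-2-1, chr6:27573417-27573441, minus strand: gtgggTtcgaAtcccacttctgaca
tRNA-Leu-TAA-3-1, chr11:59319286-59319310, plus strand: gtgggTtcgaAccccacttctggta
tRNA-Lys-CTT-2-2, chr5:180634803-180634827, plus strand: gtgggTtcgaGccccacgttgggcg
tRNA-Met-CAT-6-1, chr16:87417628-87417652, minus strand: gtgagTtcgaGcctcacacggggca
tRNA-Val-CAC-1-1, chr1:161369490-161369514, minus strand: cccggTtcgaAaccgggcggaaaca
tRNA-Thr-AGT-1-1, chr17:8090527-8090551, plus strand: ctgggTtcgaAtcccagcggtgcct
tRNA-Gln-TTG-3-1, chr6:26311424-26311448, minus strand: ccgagTtcaaAtctcggtgggacct
tRNA-Cys-GCA-2-2, chr17:37023945-37023969, plus strand: cccggTtcaaAtccgggtgccccct
tRNA-Trp-CCA-2-1, chr17:19411541-19411565, plus strand: gcgtgTtcaaGtcacgtcggggtca
tRNA-Tyr-GTA-1-1, chr6:26569152-26569176, plus strand: gctggTtcgaAtccggctcgaagga
tRNA-iMet-CAT-1-1, chr1:153643773-153643797, plus strand: gatggAtcgaAaccatcctctgcta
tRNA-Ile-TAT-2-3, chr6:27599269-27599293, plus strand: gtgagTtcgaGcctcacctggagca

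The transcript of TRMT2A itself checked the labels of the overexpressing libraries. TRMT2A (chr22:20099398-20104915, minus strand) held 0, 2 and 0 cDNA counts in FICC-Seq and 581 and 1874 in miCLIP, which were 1.49% and 1.79% of those libraries. Of the miCLIP counts, 573 and 1821 lay in exons, over 298 and 633 positions. Endogenous and transfected transcript cannot be told apart, and whether these counts come from bound messenger RNA or from carried-over construct was not tested.

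tRNA was the main target by both methods, and it took more of the FICC-Seq libraries. Within 100 nt of the 248 tRNA loci lay 82.6%, 85.6% and 82.7% of the FICC-Seq counts and 55.6% and 57.9% of the miCLIP counts, or 83.6% ± 1.73 (SD, n = 3) against 56.7% ± 1.66 (SD, n = 2). All 3 FICC-Seq libraries lay above both miCLIP libraries, and the difference of 26.9 percentage points had the smallest p that 3 against 2 libraries allow (exact two-sided permutation test, p = 0.1, Benjamini-Hochberg adjusted over 12 classes 0.1). The difference was 15.7 points without positions that held a single cDNA, and 21.2 points with tRNA genes added that were found by sequence. These loci were listed where several experiments of the study had counts, so loci seen in miCLIP alone are missing from the list.

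In the other direction, exons of annotated genes showed the widest gap. They took 0.852%, 0.569% and 0.735% of the FICC-Seq counts and 15.8% and 17.1% of the miCLIP counts. Introns took 3.02% to 4.35% against 7.35% and 8.50%, and positions with no gene on the strand 10.8% to 12.5% against 16.3% and 19.2%. Several abundant noncoding RNAs were near absent from FICC-Seq. The contig of ribosomal DNA held 0, 0 and 8 counts in FICC-Seq and 206 and 973 in miCLIP. Vault RNAs, short RNA polymerase III transcripts of the vault particle, held 0, 1 and 1 against 38 and 154 counts, and spliceosomal snRNAs 0, 0 and 1 against 56 and 95. Histone genes held 0, 1 and 1 against 24 and 62 counts. The mitochondrial genome, whose tRNAs have an m5U methyltransferase of their own, held 4, 1 and 0 against 12 and 46 counts. In every one of the 12 classes all libraries of a method lay on 1 side of the other method's, each with an exact p of 0.1.

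**Figure D1:**
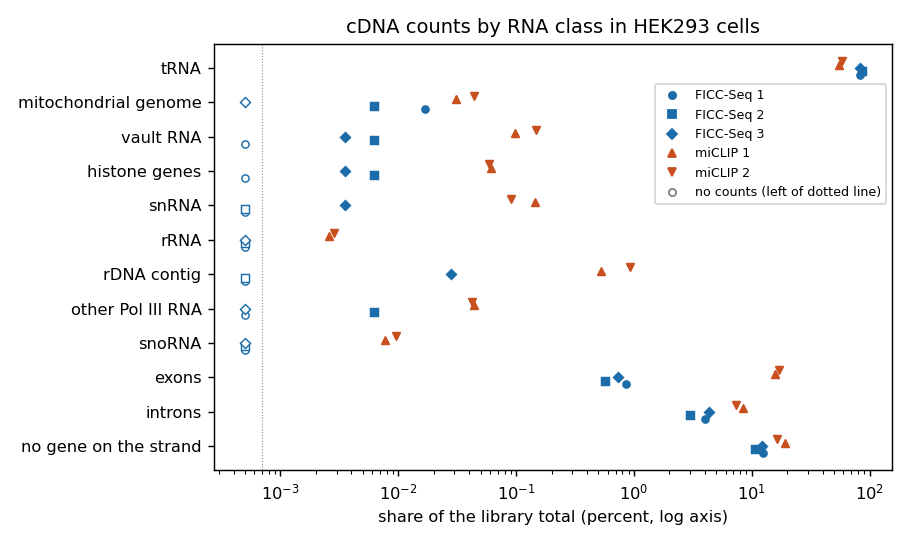
Share of each library's cDNA counts by RNA class (percent of the library total, log axis), with 1 point per library; open points left of the dotted line had no counts. tRNA is the class in which FICC-Seq (blue) lay to the right of miCLIP (orange), and exons show the widest gap among the large classes, 0.569% to 0.852% against 15.8% and 17.1%.

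Among the tRNAs, those for leucine took the largest share of FICC-Seq of any amino acid, counted over uniquely mapped reads only. An isoacceptor is here the group of tRNA loci that share an anticodon, and 47 were measured, with all other counts as 1 further group. Leucine tRNAs together held 23.7% ± 1.60 (SD, n = 3) of the FICC-Seq counts and 3.79% ± 0.53 (SD, n = 2) of the miCLIP counts, and all 5 leucine isoacceptors passed the test in that direction. Of the 48 groups, 85.4% differed at an adjusted p under 0.05 (limma voom, Benjamini-Hochberg), 35.4% higher in FICC-Seq and 50.0% higher in miCLIP, and in 91.7% FICC-Seq and miCLIP libraries did not overlap. With so many differences, the size and the order of the shares say more than the number called. The 17 groups higher in FICC-Seq made up 41.5% of the calls, and 27.5% (11 of 40) when shares were taken of the tRNA counts in place of the library total, a scaling that moved the median log2 difference from -0.51 to -1.06.

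Leu-CAA, whose genes hold an intron, was the most counted isoacceptor in FICC-Seq, with 2849, 1758 and 3305 counts against 487 and 1901 in miCLIP. Its share was 11.6% ± 0.51 (SD, n = 3) against 1.53% ± 0.40 (SD, n = 2), a log2 difference of 2.85 ± 0.16 (SE, limma voom adjusted p = 2.0e-05). Leu-CAG had 1112, 676 and 1514 counts against 181 and 768, and the log2 difference furthest above 0, 2.90 ± 0.22 (SE). Leu-TAG and Leu-TAA followed with log2 differences of 2.44 and 2.42, and Leu-AAG with 1.49. Every FICC-Seq library lay above both miCLIP libraries in each of these 5.

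Outside leucine, Gly-GCC was higher in FICC-Seq by 2.33 on the log2 scale, Lys-CTT by 1.95 and Glu-CTC by 1.55. Lys-CTT held 7.88% ± 0.12 (SD, n = 3) of FICC-Seq and 2.06% ± 0.11 (SD, n = 2) of miCLIP. Tyr-GTA was second in FICC-Seq and first in miCLIP, with 11.1% ± 1.16 (SD, n = 3) against 4.60% ± 0.43 (SD, n = 2). Ile-AAT took 4.67% and 2.30%, a log2 difference of 1.02. Serine tRNAs share the long variable arm of leucine tRNAs and did not share their gap: together they held 4.00% ± 0.59 of FICC-Seq (SD, n = 3) and 3.86% ± 0.22 of miCLIP (SD, n = 2), with 2 of 5 isoacceptors higher in FICC-Seq and 1 higher in miCLIP.

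At the other end, several isoacceptors that were clearly counted in miCLIP were at or near 0 in FICC-Seq. Trp-CCA had 507 and 1354 counts in miCLIP and 0, 29 and 0 in FICC-Seq. Thr-AGT had 711 and 1627 against 0, 25 and 2, and Gln-TTG 289 and 1079 against 0, 12 and 0. In all 3 of these nearly every FICC-Seq count came from replicate 2. Pro-TGG (0, 0 and 1 against 87 and 211), Arg-ACG (0, 3 and 1 against 146 and 409), Gln-CTG (1, 2 and 1 against 107 and 381) and His-GTG (2, 8 and 4 against 202 and 494) were low in every FICC-Seq library. Of these, all but Pro-TGG had their highest FICC-Seq share in replicate 2. The fitted log2 differences of the isoacceptors named here ran from -7.20 for Trp-CCA to -4.53 for His-GTG. At counts of 0 they depend on the constant added before the log. By amino acid, threonine tRNAs held 4.77% of miCLIP and 0.488% of FICC-Seq, cysteine 3.19% and 0.338%, and glutamine 1.21% and 0.0318%. Tryptophan held 1.297% and 0.0605%, proline 0.815% and 0.0537%, and histidine 0.495% and 0.0242%. Every isoacceptor of these amino acids passed the test.

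Initiator methionine tRNA, which starts translation and has adenosine at position 54 in place of uridine, had no FICC-Seq count in any library and 66 and 175 in miCLIP. Its share of the libraries was at least 38.1-fold higher in miCLIP, taken against 3 counts over the FICC-Seq libraries. At the locus tRNA-iMet-CAT-1-1, 45 of 64 and 121 of 167 miCLIP counts lay at position 58, and 7 and 28 at positions 53 and 54. The elongator Met-CAT, with uridine at 54, was higher in FICC-Seq by 0.96 on the log2 scale. Of its 5 loci, 1 was higher in FICC-Seq and 2 in miCLIP. The former, tRNA-Met-CAT-6-1, held 765, 399 and 824 of its 1040, 628 and 1043 FICC-Seq counts. Uridine at 54 was also shared by isoacceptors near 0 in FICC-Seq, such as Trp-CCA, Gln-TTG and Pro-TGG.

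Among the most counted isoacceptors of miCLIP, Ala-AGC held 3.57% of miCLIP and 1.25% of FICC-Seq, Cys-GCA 3.19% and 0.338%, and Thr-TGT 2.37% and 0.379%. Ile-TAT, the last of the 5, held 2.56% and 1.98%, and its call was lost in most alternatives: the log2 difference of -0.47 (limma voom adjusted p = 0.0426) became 0.66 when only positions 53 and 54 were counted. The other isoacceptors chosen by the rule for named ones (the 8 furthest in each direction and the 5 highest in each method) kept their direction and their call in every alternative run. FICC-Seq replicate 2 had the highest FICC-Seq share for 19 of the 23 isoacceptors higher in miCLIP and for all 7 without a call, but for 3 of the 17 higher in FICC-Seq. Without it, 44 groups passed in place of 41, and Trp-CCA, Thr-AGT and Gln-TTG moved to -9.40, -8.62 and -8.82.

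Single tRNA loci spread further than their isoacceptors. Of 247 loci tested, 74.1% differed, 30.4% higher in FICC-Seq and 43.7% higher in miCLIP (limma voom over loci and sites together, of which 71.7% differed, 24.1% higher in FICC-Seq and 47.5% higher in miCLIP), and 80.2% of loci did not overlap between the methods (79.3% of loci and sites together). The total of 627 calls over 875 loci and sites fell to 340 without miCLIP replicate 1. With all libraries thinned to 15982 counts it was 367, but fewer loci and sites then reached the minimum count and were tested. In 16 isoacceptors some loci were higher in FICC-Seq and others in miCLIP.

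tRNA-Leu-CAA-2-1 had 666, 399 and 880 counts in FICC-Seq and 35 and 181 in miCLIP, a log2 difference of 4.30 ± 0.29 (SE, limma voom adjusted p = 6.7e-07). tRNA-Leu-CAA-1-2, the most counted locus of FICC-Seq, had 798, 474 and 923 against 65 and 226, tRNA-Leu-CAG-2-2 had 609, 356 and 878 against 54 and 196, and tRNA-Leu-TAA-3-1 had 334, 173 and 462 against 36 and 83. These 4 leucine loci lay between 3.94 and 4.30 on the log2 scale. The least counted loci among the widest gaps were tRNA-Gly-GCC-4-1 (25, 13 and 28 counts against 2 and 1), an unnamed locus (24, 19 and 30 against 2 and 4) and tRNA-Leu-TAA-chr11-12 (16, 2 and 15 against 1 and 1). The call of the last was lost without miCLIP replicate 2 (limma voom adjusted p = 0.063).

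tRNA-Val-CAC-1-1 had 0, 3 and 0 counts in FICC-Seq and 176 and 674 in miCLIP. tRNA-Val-AAC-1-1 (chr3:169490018-169490090, plus strand), with the same T-arm, had none in FICC-Seq and 67 and 369 in miCLIP, at least 68.9-fold higher there. tRNA-Thr-AGT-1-1 had 0, 22 and 2 against 621 and 1349, tRNA-Gln-TTG-3-1 had 0, 7 and 0 against 166 and 515, and tRNA-Trp-CCA-2-1 had 0, 7 and 0 against 177 and 504. Where FICC-Seq had any count at these loci, most were of replicate 2. Without it the log2 differences of tRNA-Val-CAC-1-1, tRNA-Thr-AGT-1-1, tRNA-Gln-TTG-3-1 and tRNA-Trp-CCA-2-1 moved from -7.11, -6.61, -6.42 and -6.42 to -8.22, -8.28, -7.93 and -7.94. Among the most counted loci of miCLIP, tRNA-Cys-GCA-2-2 (3, 29 and 5 against 445 and 930) and tRNA-Thr-TGT-5-1 (4, 39 and 6 against 385 and 990) showed the same.

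The tyrosine loci, all with the anticodon GTA and most with an intron, were divided. Of 12 loci, 7 were higher in FICC-Seq and 5 in miCLIP. tRNA-Tyr-GTA-1-1, the most counted locus of miCLIP with 750 and 2312 counts, had 43, 66 and 68 in FICC-Seq, a log2 difference of -3.04 ± 0.28 (SE). tRNA-Tyr-GTA-5-4 had 644, 479 and 896 against 116 and 415, a log2 difference of 2.999 ± 0.17 (SE), and tRNA-Tyr-GTA-2-1 had 558, 330 and 705 against 182 and 511. The T-loop of the first reads TTCGAAT and that of the other two TTCGATT, which differ at base 59 alone. The 4 tyrosine loci with TTCGAAT were all higher in miCLIP, as was tRNA-Tyr-GTA-5-2 with TTCGATT (50, 62 and 50 counts against 148 and 516).

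Of the remaining named loci, tRNA-Lys-CTT-2-2 was higher in FICC-Seq by 3.27 on the log2 scale (340, 224 and 443 counts against 53 and 167), tRNA-Leu-AAG-2-1 by 2.50 and tRNA-Glu-CTC-2-1 by 1.86. tRNA-Ile-TAT-2-3 (318, 225 and 337 against 398 and 1164) and tRNA-Ala-CGC-1-1 (27, 21 and 24 against 37 and 83) were not called, with log2 differences of 0.26 and 0.34 whose signs turned when shares were taken of the tRNA counts (-0.29 and -0.20). tRNA-Met-CAT-6-1 was higher in FICC-Seq by 2.18 (765, 399 and 824 counts against 325 and 591).

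Grouped by the 7 bases of the T-loop, a description made after the values were seen, loci moved alike for some loops only. The 5 valine loci with TTCGAAA were all higher in miCLIP, with 0, 3 and 0 counts in FICC-Seq and 311 and 1286 in miCLIP. Of 32 loci with TTCAAAT, 28 were higher in miCLIP and 1 in FICC-Seq, with a median log2 difference of -4.04. Of 32 loci with TTCGATT, 18 were higher in FICC-Seq and 6 in miCLIP, median 1.22, and of 27 with TTCGAGC, 14 and 4, median 0.80. Their log2 differences ran from -3.66 to 3.41 and from -3.21 to 3.27. Of 6 loci with TTCGACT (median -3.00), 2 were higher in FICC-Seq and 4 in miCLIP, and of 9 with TTCGAAC (median -2.48), 3 and 5. The median of all 247 loci was -0.53. Loci with TTCGAAT were mixed, 18 of 47 higher in FICC-Seq and 17 in miCLIP, and all 18 were leucine or serine loci, which have a long variable arm.

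The loci were also grouped by base 59 and the variable arm. Of 51 loci with adenine at 59 and a short variable arm, from 18 isoacceptors, none was higher in FICC-Seq and 50 were higher in miCLIP, with a median log2 difference of -4.14. They held 172, 373 and 188 counts in FICC-Seq, or 0.725%, 2.33% and 0.661% of the libraries, and 5993 and 16796 in miCLIP, or 15.4% and 16.1%. Of 44 leucine and serine loci with adenine at 59, 22 were higher in FICC-Seq and 7 in miCLIP (median 0.83). These 44 loci held 26.3% to 28.1% of FICC-Seq and 7.05% and 7.55% of miCLIP. Leucine and serine differed. Of all 22 placed leucine loci, 1 of them with guanine at 59, 17 were higher in FICC-Seq and none in miCLIP, against 5 and 7 of 23 serine loci. The 7 short-armed loci with cytosine at 59 were also mostly higher in miCLIP (5 of 7, 2 higher in FICC-Seq, median -3.49). Loci with guanine or thymine at 59 and a short variable arm had medians of 0.08 in both groups, with 16 of 50 and 29 of 80 higher in FICC-Seq and 16 and 27 higher in miCLIP. The grouping was formed on these same libraries and has no test.

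How reads could be placed limits the reading of single loci, and of the isoacceptor and amino acid shares that are summed from them. The authors kept uniquely mapped reads, and a cDNA that starts after position 53 and runs to the CCA tail of the mature tRNA is 23 nt long. Allowing 2 mismatches, such a read mapped uniquely to its own locus for 22 of the 233 placed loci, to another place for 72, to several places equally well for 123 and nowhere for 16. For each of the 5 Leu-CAA loci the mature read had 14 equally good places. A read of 30 genomic bases, which continues past the mature 3′ end, was unique for 231 loci. The 22 loci held 2.70% to 4.06% of the FICC-Seq counts and 5.37% and 5.51% of the miCLIP counts, and of them 2 were higher in FICC-Seq and 14 in miCLIP. Of the 211 loci where the mature read was not unique, 67 were higher in FICC-Seq and 91 in miCLIP. In 9 of the 44 T-arm sequences that occur at more than 1 locus, some copies were higher in FICC-Seq and others in miCLIP: of the 7 Ile-AAT loci with 1 T-arm, 3 were higher in FICC-Seq and 3 in miCLIP, from -3.01 to 2.05 on the log2 scale. The part of mature and precursor reads in these differences was not tested.

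Along the tRNA, FICC-Seq counts were concentrated in the T-loop and miCLIP counts reached further upstream. Position 53 is the last base before U54, and a cDNA that ends with a copy of base 54 is counted there. A cDNA that stopped before copying base 54 is counted at 54. Positions 53 and 54 together held 70.5%, 65.3% and 76.1% of the placed tRNA counts of FICC-Seq and 47.7% and 43.3% of miCLIP, or 70.6% ± 5.38 (SD, n = 3) against 45.5% ± 3.16 (SD, n = 2). From 53 to 60 the shares were 97.3%, 90.2% and 96.5% against 61.2% and 54.01%. The share at 53 and 54 and the shares of the other regions given next did not overlap between the methods, each with the smallest exact p of 0.1.

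Position 58, where many tRNAs carry 1-methyladenosine, held 19.4%, 18.8% and 15.8% of the placed tRNA counts of FICC-Seq and 8.40% and 8.22% of miCLIP. Relative to position 53 it was 0.299 to 0.443 in FICC-Seq and 0.243 and 0.298 in miCLIP. The ratio of position 54 to 53 was 0.435 to 0.544 in FICC-Seq and 0.691 and 0.280 in the 2 miCLIP libraries, which thus lay on either side of FICC-Seq.

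Upstream of the T-arm, FICC-Seq replicates 1 and 3 were almost empty. The anticodon loop held 0.0621%, 1.68% and 0.0860% of the placed tRNA counts of FICC-Seq and 8.14% and 9.92% of those of miCLIP. Positions 44 to 48 with the variable arm held 0.0207%, 1.02% and 0.0344% against 6.69% and 6.62%. Introns held 0.0052%, 0.908% and 0.0129% against 1.84% and 2.91%, and the 5′ leader 0.388%, 1.78% and 0.421% against 3.74% and 8.49%. In each of these, FICC-Seq replicate 2 was the highest of its group and still below both miCLIP libraries. The 3′ trailer held 0.0052% to 0.0172% of the placed tRNA counts of FICC-Seq and 0.145% and 0.164% of those of miCLIP. On the 3′ side of the T-stem the order was the reverse, 0.546% to 0.744% against 0.240% and 0.459%, and it turned when position 53 was taken from the highest HAP1 FICC-Seq position (-0.332 percentage points).

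Of 45 positions or regions fitted within the tRNA counts, 60% differed (limma voom), 8.89% higher in FICC-Seq and 51.1% higher in miCLIP, and in 84.4% the libraries did not overlap. The 4 that were higher in FICC-Seq were 53, 54, 58 and 59, with log2 differences of 0.61 ± 0.14, 1.05 ± 0.29, 1.10 ± 0.17 and 2.23 ± 0.56 (SE). The 5 lowest were 43, 38, 42, 41 and 35, in the anticodon arm, from -7.31 to -6.86, and their FICC-Seq counts were nearly all of replicate 2. Without it their log2 differences were from -9.37 to -8.09. These calls rest on single libraries: 27 passed in all, 34 without FICC-Seq replicate 2, 1 without FICC-Seq replicate 1, 3 without FICC-Seq replicate 3 and 3 without miCLIP replicate 2. Without miCLIP replicate 2, position 54 was at 0.25 (adjusted p = 0.0575, limma voom).

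The tighter placement at U54 was seen in most isoacceptors with enough counts. Of 35 with at least 10 counts in every library, 77.1% differed in the share at positions 53 and 54, 71.4% with a higher share in FICC-Seq and 5.71% with a higher share in miCLIP (limma voom). Ala-AGC had 85.9%, 61.01% and 85.9% of its counts there in FICC-Seq and 35.1% and 31.2% in miCLIP, Leu-CAA 68.7%, 61.7% and 72.7% against 29.2% and 29.5%, and Tyr-GTA 86.9%, 81.7% and 91.9% against 40.7% and 35.5%. Ile-TAT had 75.6%, 56.4% and 80.4% against 37.1% and 30.9%. For Leu-CAG, whose log2 difference in library share was the furthest above 0, the share at 53 and 54 was 58.1% to 63.7% in FICC-Seq and 56.9% and 59.8% in miCLIP, a log2 difference of 0.04 with a 95% interval from -0.19 to 0.27. With position 53 taken from the highest HAP1 FICC-Seq position, that difference was 0.71 and passed the test. Leu-AAG, with 56.1% to 69.9% against 54.5% and 60.4%, was not called either (95% interval from -0.14 to 0.35).

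Cys-GCA (22.0%, 34.7% and 42.6% against 43.9% and 38.2%) and Ser-CGA (39.5%, 34.4% and 45.8% against 49.6% and 50.8%) were the isoacceptors called with a lower share in FICC-Seq. Ser-AGA (41.3%, 35.4% and 40.1% against 50.6% and 43.8%) was below both miCLIP libraries in every FICC-Seq library and was not called. The call of Cys-GCA was lost without any 1 of FICC-Seq replicate 1, miCLIP replicate 1 and miCLIP replicate 2, and its sign turned with HAP1 placement (0.90). The short-armed loci with adenine at 59 had 49.4%, 35.9% and 53.2% of their few FICC-Seq counts at 53 and 54, against 40.3% and 36.0% in miCLIP, where loci with thymine at 59 had 69.8% to 80.2% against 46.6% and 51.3%.

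**Figure D2:**
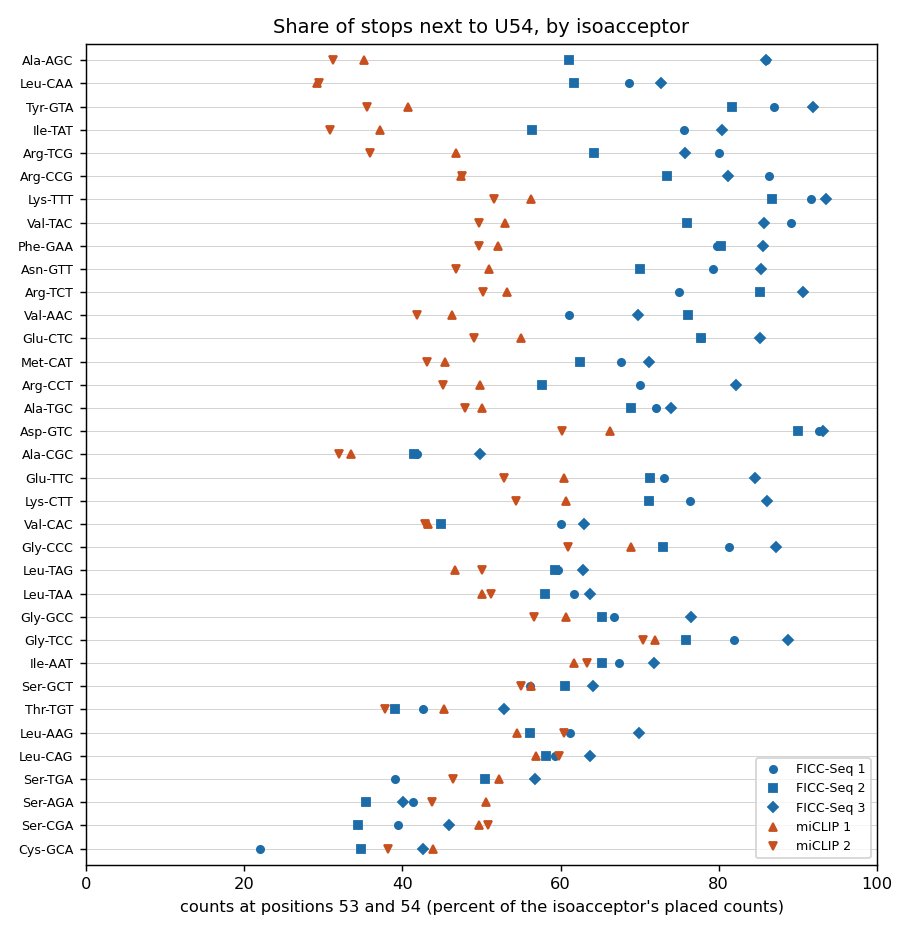
Share of each isoacceptor's placed counts at positions 53 and 54 (percent), 1 point per library, for the 35 isoacceptors with at least 10 counts in every library. In the upper rows all FICC-Seq points (blue) lie to the right of both miCLIP points (orange), as for Tyr-GTA at 81.7% to 91.9% against 35.5% and 40.7%; in the lowest rows the methods overlap or change sides.

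Outside the listed tRNA loci, 628 sites had at least 10 counts over the 5 libraries. Of these 70.7% differed, 21.7% higher in FICC-Seq and 49% higher in miCLIP, and 79.0% did not overlap between the methods. The tested sites held 2745, 1575 and 3277 counts in FICC-Seq and 6956 and 18472 in miCLIP. A site could thus pass the minimum more easily through the deeper miCLIP libraries alone, and the numbers in each direction were not set on equal terms. Many tested sites resembled tRNA. Of the 136 sites higher in FICC-Seq, in 64.0% the 18 bases from the site on matched the end of a mature tRNA, 3 mismatches allowed, as did 53.2% of the 308 sites higher in miCLIP and 70.7% of the 184 without a call. Sites on a tRNA gene found by sequence made up 2.21% of the FICC-Seq group and 28.6% of the miCLIP group, against 19.1% of all tested sites. Matching sites without such a gene made up 61.8% and 32.8%, against 48.2% of all tested sites and 64.1% of those without a call. The T-loop motif GTTCAA or GTTCGA began at the counted position, on the strand of the counts, in 3.68% of the FICC-Seq group and 21.4% of the miCLIP group, against 15.1% of all tested sites and 0.135% of the positions around the sites. Sites with fewer than 10 counts held 31.4% to 33.5% of the counts outside tRNA in FICC-Seq and 58.04% and 59.9% in miCLIP.

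The bases at sites with the widest gaps, and at 2 of the most counted, are shown in GRCh37, on the strand of the counts, 25 bases with the capital marking the base after the counted position. The first 2 sites were higher in miCLIP and the remaining 6 in FICC-Seq.
TRMT2A exon, chr22:20102867-20102891, minus strand: gcaagTacaagggcgggacgtgtgc
LINC01962 exon, chr5:180615411-180615435, minus strand: ttcgaAaccgggcggaaacatgcca
ZC3HAV1 intron, chr7:138790201-138790225, minus strand: tggagTtctaatcccacttctgatg
no gene on the strand, chr11:25104897-25104921, plus strand: ttgacAcccacttctgacacatact
no gene on the strand, chr5:178157500-178157524, plus strand: ggcagTccccgtgccgggcgccgcc
no gene on the strand, chrX:46354951-46354975, minus strand: attttTtccacccctgacacctcca
no gene on the strand, chr1:228308855-228308879, plus strand: tctacCtcgaatcccacttctgaca
no gene on the strand, chr1:161493637-161493661, minus strand: ccgggTtcgattcccggccaatgca

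The TRMT2A exon site was the furthest towards miCLIP, with 0, 0 and 0 counts in FICC-Seq and 128 and 364 in miCLIP, at least 77.8-fold higher. Of 14 tested sites in TRMT2A, 13 were higher in miCLIP and none in FICC-Seq. The site in the long noncoding RNA gene LINC01962 (0, 1 and 0 counts against 99 and 337) overlaps a valine tRNA gene with anticodon AAC found by sequence. Sites on such genes for Val-CAC at chr6:27248048-27248072 (0, 6 and 0 against 126 and 480), Arg-ACG at chr6:27181623-27181647 (0, 1 and 0 against 98 and 276) and Trp-CCA at chr6:26331672-26331696 (0, 2 and 0 against 98 and 335) were likewise near 0 in FICC-Seq. All 7 tested sites on the ribosomal DNA contig were higher in miCLIP.

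Towards FICC-Seq, the counts were small. The site in an intron of ZC3HAV1, the gene of an antiviral RNA-binding protein, had 28, 13 and 38 counts against 0 and 1. The chromosome 5 site had 23, 4 and 35 against 0 and 0, the chromosome 11 site 19, 11 and 18 against 0 and 0, and the chromosome X site 16, 7 and 26 against 0 and 0. Their shares were at least 43.6-, 33.7- and 34.4-fold higher in FICC-Seq, against 3 counts over the miCLIP libraries. The longest run shared with the T-arm of tRNA-Leu-CAA-2-1 was 14 bases in the ZC3HAV1 sequence and 13 in that of the chromosome 11 site. Other sites outside the list shared runs of similar length, such as 18 bases at chr9:123117353-123117377, and runs were not compared between the directions. The longest such run, 19 bases, was in the sequence of the site at chr1:228308855-228308879. That site had 97, 41 and 94 counts against 15 and 77, and the Gly-GCC gene found by sequence at chr1:161493637-161493661 had 200, 138 and 195 against 77 and 247; both were among the 5 most counted sites outside the list in FICC-Seq. The other 3 of those 5, at tRNA genes found by sequence for Asp-GTC (133, 63 and 187 against 122 and 201) and Gly-TCC (76, 78 and 60 against 68 and 99) and at a site on chromosome 2 (98, 46 and 76 against 96 and 133), were higher in FICC-Seq by 1.33, 1.41 and 1.05 on the log2 scale, and each lost its call with TMM scaling (0.65, 0.79 and 0.38).

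Of the named noncoding RNAs, VTRNA1-2 had 0, 1 and 1 counts in FICC-Seq and 31 and 133 in miCLIP, and VTRNA1-1 had none and 6 and 19. RN7SK, which holds back the elongation factor P-TEFb, had none and 11 and 26. The Ro-associated RNY1 had none and 1 and 9, and RMRP, the RNA of RNase MRP, none and 3 and 6. VTRNA1-3, RN7SL2, RNY5 and RNU6-1 had no FICC-Seq count and at most 2 in a miCLIP library, and RNY4 had at most 1 in any library. VTRNA2-1, RNY3 and RNU1-1 had no count in any library. HIST1H4B had 0, 1 and 1 counts against 0 and 4, too few to tell the methods apart.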

How the data were processed

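For each of the 5 libraries the authors deposited signed whole-number cDNA counts per genomic position, the sign giving the strand, a value of its own kind that is treated here as counts. According to the study's methods and the deposited files, the iCount web server removed PCR duplicates by 5 random barcode bases (1024 barcodes), and bowtie mapped reads to hg19 with at most 2 mismatches, keeping unique alignments. A correction for barcode collisions would add up to 58.9% at the highest FICC-Seq position, and 0.869% to 9.43% to the library totals.

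Absolute counts were summed per tRNA locus (clusters that the study lists as tRNA, within 100 nt, joined under 40 nt), per isoacceptor, per mature position (placed from the T-loop and acceptor stem in GRCh37 sequence, possible for 233 of 248 loci; 241 of the 248 had a tRNA name) and per site outside tRNA (positions at most 10 nt apart). Rows with at least 10 counts were tested. Because the deposited values carry a sign, the planned count model was replaced by limma voom 3.58.1 (R 4.3.3, offset of 0.5 counts) on log2 CPM of the library total, with Benjamini-Hochberg adjustment over all rows and a threshold of 0.05. For positions, the total was that of placed tRNA counts, and for positions 53 and 54 by isoacceptor, that of the isoacceptor. The fit by isoacceptor shares its estimate of the spread over all 35 isoacceptors. Shares by class or region were compared by exact two-sided permutation. Percentages of counts by class, isoacceptor, amino acid and locus are of the library total. Those by tRNA position or region are of the placed tRNA counts. For positions 53 and 54 by isoacceptor or locus group they are of its own placed counts. Other steps used pysam 0.24.0, numba 0.67.0, scipy 1.17.1, pandas 2.3.3 and numpy 2.4.6 in Python 3.11.15.

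The steps were tested on simulated counts for loci and sites, with an assumed spread. In these, 200 rows were changed before the minimum count, which 750 rows passed. Of the passing rows, 47.1% of 85 changes of 2 and 88.7% of 97 changes of 4 on the log2 scale were called, and 1.94% of 568 unchanged rows. In the data 71.7% of rows were called, a larger part than was changed in the simulation. Replicate numbers are shared between the methods by number only. The members, lists and rules were chosen with earlier results of these data known. Named items were the isoacceptors, loci, sites and positions with the largest differences in each direction (8, 5, 8 and 5), the 5 highest in each method, and fixed lists from the study. RN7SL1, RPPH1 and RNU2-1 were not analysed here. The alternatives covered scaling, minimum count, definition of tRNA, collisions, single-count positions, depth, placement, weighting, the replicate block and leaving out each library; limma-trend and positions 53 and 54 alone were added after seeing the data.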

Additional observations from a re-analysis of the deposited data

How the results depend on the processing

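The count of isoacceptor groups that differed (41) was from 28 to 41 under every alternative that kept all libraries, and from 32 to 44 with 1 library left out. For loci and sites (627), 983 of 31367 were called with no minimum count, 354 of 476 with at least 30 counts and 367 of 505 after thinning, and 340 to 619 with 1 library left out. For positions (27), limma-trend called 14, and 1 to 34 were called with 1 library left out; for positions 53 and 54 by isoacceptor (27), the range was 20 to 26. Neither the planned edgeR model nor DESeq2 was run. The replicate number as a block gave 28 isoacceptor groups, 490 loci and sites, 20 positions and 26 isoacceptors by position; same-numbered libraries did not deviate together (correlations -0.071 and -0.022), so the numbers do not pair them, and under this block Leu-CAG and Thr-TGT at positions 53 and 54 were at -0.0047 and -0.010. The other signs that turned were Ile-TAT with positions 53 and 54 only (0.657), tRNA-Ile-TAT-2-3 (TMM -0.259, tRNA total -0.287, without single-count positions -0.0486), tRNA-Ala-CGC-1-1 (TMM -0.244, tRNA total -0.199), and, with HAP1 placement, Cys-GCA at positions 53 and 54 (0.901) and the 3′ side of the T-stem (-0.332). Annotated rRNA had no counts without single-count positions (difference 0). Taking tRNA counts as the total moved the median over loci and sites from -1.53 to -2.09. The cause of these changes was not tested. No share by class or region changed sign with a library left out. Counts of 0 in FICC-Seq limit what can be said of single loci: in its shallowest library they allow a share of 0.0188%.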
